A study of Rattus norvegicus with 6 samples.

Results

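Ribosomes are built in the nucleolus, where RNA polymerase I transcribes ribosomal RNA, small nucleolar ribonucleoproteins (snoRNPs) guide its chemical modification, and a succession of assembly factors cuts, folds and packs it with ribosomal proteins into the small and the large subunit. The genes for these factors are classic targets of the transcription factor Myc, which with its partner Max binds the E-box CACGTG, and their activity is tied to cell growth. Expression of 43 such genes was followed here: subunits of RNA polymerase I, proteins of both classes of modification snoRNP, nucleolar scaffold proteins, and assembly factors of the small and the large subunit. They were listed by name, and each was represented by the probe set that named it alone and had the highest mean signal over the 6 arrays. Of 43 genes, 42 had such a probe set, out of 14217 genes named in this way on the array, and these 42 passed the filter on low signal and were among the 10037 genes tested. The remaining gene, Npm1, was not analysed here, since each of its 3 probe sets also names a second gene.

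The cells were 3Y1, a line of rat embryonic fibroblasts, which carried as a stable transfection either the empty vector (Vector) or one that expresses MUC1-CD, the cytoplasmic tail of the mucin MUC1. Vector cells and MUC1-CD cells were grown in culture in the same serum-containing medium, and MUC1-CD cells were also grown as tumors under the skin of the hindlimbs of female athymic mice, with 2 arrays in each of these 3 groups. No tumors of Vector cells are among the arrays, and the labels do not say whether a line is 1 clone, how old the mice were, or whether tumors were pooled. Tumor RNA was prepared from frozen, preserved and homogenized tissue with spin columns besides the TRIzol used for cultures, so the effect of this step and that of growth in the animal cannot be told apart. The design asks which genes accompany transformation by MUC1-CD and the growth of its tumors. Values are MAS5 signals, microarray intensities on a linear scale, given array by array in the order replicate 1, replicate 2. A change is the difference between group means of log2(signal + 16), given with limma's standard error (SE), and adjusted p is limma's after Benjamini-Hochberg adjustment over all 18625 probe sets tested, with a threshold of 0.05. The labels call the replicates biological without saying what was repeated, so p values measure the spread between these arrays.

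All 12 fibroblast markers looked up had a signal above the filter on both arrays of MUC1-CD culture. Their summed signals were 137132 and 126679 in Vector cells, 94555 and 96072 in cultured MUC1-CD cells and 117097 and 121655 in the tumors. In culture against Vector 6 of these 12 fell and 2 rose, where 24.9% of all genes tested were called lower and 21.2% higher. Their median of -0.34 had the sign of that of the nucleolar genes described next, and their part in that result was not tested. In tumors against Vector 2 of the 12 were lower and 3 higher, with a median of -0.09, where 26.6% of all genes were called lower and 24.8% higher. The Vector arrays stood apart in a sign of RNA quality: the ratio of 3' to 5' signal of Gapdh was 11.5 and 17.8 there and 1.11 to 1.18 on the other 4 arrays, and that of beta-actin was 41.7 on Vector replicate 2 against 2.97 to 4.15 on the other 5. The control probe set for 5S ribosomal RNA also stood apart, at 1799.6 and 1469.8 on the Vector arrays and 227 to 292 on the other 4. Vector replicates also differed more from each other, with an SD of their difference of 0.62 log2 over all probe sets tested, and 0.26 for the culture and 0.28 for the tumor replicates of MUC1-CD cells. The state of the RNA and the vector carried cannot be told apart here, and the part of these signs in the changes against Vector was not tested. One estimate of the spread served all 3 groups, so p values against Vector can be too small and those between the MUC1-CD groups too large.

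Most of the nucleolar genes had lower signals in MUC1-CD cells than in Vector cells. In culture, 23 of the 42 fell and 1 rose, where 24.9% of all genes tested were called lower and 21.2% higher, and the median change of the 42 was -0.56 against -0.04 over all genes tested. The 6 largest falls, each over 2-fold on this scale like those of 10.9% of all genes, were those of Bop1 (-2.13), Gnl3 (-1.92), Mybbp1a (-1.49), Rcl1 (-1.17), Nop2 (-1.12) and Wdr43 (-1.01). Dkc1, which encodes the pseudouridine synthase dyskerin, was the member that rose (1.62). For 29 of the 42, both Vector arrays lay above all 4 other arrays, and for 3 (Dkc1, Ncl and Tcof1) both lay below them, where 30% and 25.9% of all genes tested did so. With each array divided by its median signal, which moved the median of all genes to -0.35, 30 members fell and 1 rose around a median of -0.88, where 39.3% of all genes were called lower and 13.1% higher. Without Vector replicate 2, the array with the highest beta-actin ratio, 30 members fell and 1 rose, and without replicate 1, 27 fell and 3 rose, where 32.6% and 32.7% of all genes were called lower and 28.4% and 30.3% higher. Without MUC1-CD culture replicate 1 or 2, 14 or 12 members fell, where 14.3% or 13.4% of all genes were called lower.

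**Figure D1:**
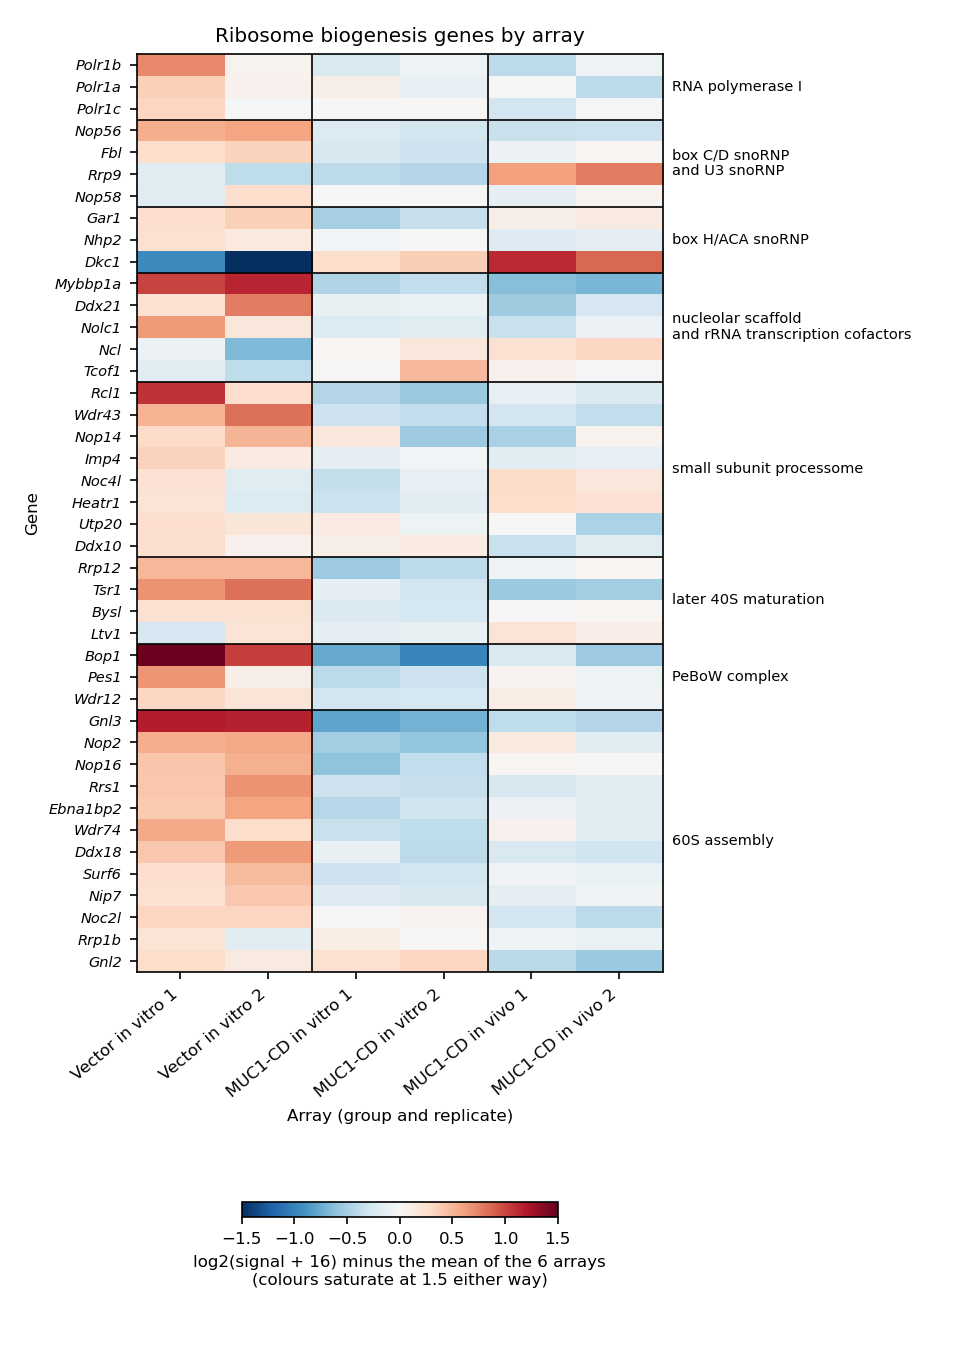
Signal of each of the 42 genes on each of the 6 arrays, as log2(signal + 16) minus the gene's mean over the arrays, with genes in the order of their roles. The 2 Vector columns are red for most genes, with Bop1, Gnl3 and Mybbp1a among the deepest, while Dkc1 runs the other way.

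The E-box CACGTG was looked up in the RefSeq promoter windows of the GRCr8 assembly, from 250 bases before to 50 bases after each annotated start. The motif is its own reverse complement, so the search covers both strands. Of the 42 genes, 38 have a window in the table (all but Bop1, Wdr43, Rrs1 and Gnl2), and 14 of these (36.8%) hold the motif, against 9.96% of the 8416 windows of all genes tested and 6.65% of all 27457 windows. In MUC1-CD culture, 11 of the 14 genes with the motif fell and 1 rose, while 9 of the 24 without it fell. Bop1, Wdr43 and Rrs1, which have no window, also fell and are on neither side. The members are of a kind known as Myc targets and were listed with earlier results of these data known. Nothing is therefore concluded from their share with the motif or from this split. Among all genes tested, 28.8% of those with the motif and 24.2% of those without it were called lower. In 11 of the 14 genes the motif began within 60 bases of the annotated start. The 250 bases before the start are shown for the 5 members with the motif there and the smallest p in MUC1-CD culture against Vector, 5′ to 3′ on the strand of the gene, with the motif in capitals. They come from chr16:6219783-6220032 (Gnl3, minus strand), chr10:57555208-57555457 (Mybbp1a, plus), chrX:157751401-157751650 (Dkc1, plus), chr13:35295973-35296222 (Ddx18, minus) and chr14:83074096-83074345 (Pes1, plus).
Gnl3: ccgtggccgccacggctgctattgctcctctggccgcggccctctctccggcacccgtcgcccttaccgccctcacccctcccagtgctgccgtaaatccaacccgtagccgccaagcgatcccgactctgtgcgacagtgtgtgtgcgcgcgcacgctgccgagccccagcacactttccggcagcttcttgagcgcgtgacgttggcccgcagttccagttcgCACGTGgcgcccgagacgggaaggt
Mybbp1a: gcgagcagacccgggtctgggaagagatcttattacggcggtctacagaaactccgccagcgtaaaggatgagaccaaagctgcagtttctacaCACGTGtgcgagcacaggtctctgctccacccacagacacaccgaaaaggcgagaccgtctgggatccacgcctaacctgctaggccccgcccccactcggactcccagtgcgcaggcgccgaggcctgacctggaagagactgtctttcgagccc
Dkc1: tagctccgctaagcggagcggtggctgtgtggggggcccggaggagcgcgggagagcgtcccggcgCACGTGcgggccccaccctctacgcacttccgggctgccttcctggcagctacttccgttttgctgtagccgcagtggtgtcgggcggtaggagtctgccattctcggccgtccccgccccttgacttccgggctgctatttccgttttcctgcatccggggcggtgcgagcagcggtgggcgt
Ddx18: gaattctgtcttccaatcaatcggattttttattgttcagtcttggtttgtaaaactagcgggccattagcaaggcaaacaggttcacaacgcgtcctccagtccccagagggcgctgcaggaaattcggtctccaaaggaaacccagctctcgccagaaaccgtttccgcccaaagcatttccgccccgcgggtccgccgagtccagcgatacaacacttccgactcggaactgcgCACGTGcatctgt
Pes1: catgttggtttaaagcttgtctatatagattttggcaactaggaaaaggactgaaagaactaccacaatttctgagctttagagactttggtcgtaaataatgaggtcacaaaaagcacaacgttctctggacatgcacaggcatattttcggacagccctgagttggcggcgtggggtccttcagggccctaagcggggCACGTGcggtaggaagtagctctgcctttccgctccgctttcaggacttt
Counted from the annotated start, where the base before it is -1, the motif begins at -25 in Gnl3, -13 in Ddx18 and -50 in Pes1. In Mybbp1a it begins at -156, and again at -1, across the start and so outside the letters shown. In Dkc1, the member that rose, it begins farther upstream, at -184. A match is a description of these letters and says nothing of binding by Myc, which was not measured.

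RNA polymerase I makes the long precursor of ribosomal RNA, and none of its 3 subunits in the list was called in any comparison by limma. At an unadjusted p of 0.05, 0 were called in culture and 1 was lower in tumors against Vector. With each array divided by its median signal, 1 was called lower in culture and 3 in tumors against Vector, where 39.3% and 53.9% of all genes were. After quantile normalization 0 and 2 were called lower, where 25.6% and 29.3% of all genes were. All 3 had the higher Vector signal on replicate 1, so the fit without Vector replicate 2 set them against that array alone. Their falls against Vector were then larger, and Polr1b changed by -0.87 in culture. Polr1a had signals of 439 and 356 in Vector cells, 364 and 312 in cultured MUC1-CD cells and 343 and 256 in the tumors. It encodes the largest, catalytic subunit, and its Vector and culture signals overlapped. Polr1b had signals of 519.5 and 323 in Vector cells, 262 and 293 in cultured MUC1-CD cells and 233 and 292 in the tumors. For this second-largest subunit both culture arrays lay below both Vector arrays, but the Vector arrays were themselves far apart, and the change was -0.54 (SE 0.25, adjusted p = 0.125). Polr1c, a subunit shared with RNA polymerase III, had signals of 1902 and 1500.5 in Vector cells, 1532 and 1536 in cultured MUC1-CD cells and 1248 and 1488 in the tumors. Its Vector and culture arrays also overlapped.

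Box C/D snoRNPs methylate ribosomal RNA, and 2 of the 4 members of this group fell in culture, where 24.9% of all genes tested did. Nop56 had signals of 5281 and 5455 in Vector cells, 3142 and 2992 in cultured MUC1-CD cells and 2859 and 2894 in the tumors. Nop56, a core protein of the particle, fell by 0.80 (SE 0.09, adjusted p = 0.000772), and its MUC1-CD signals were closely grouped in both settings. Its second probe set, at -0.34, was not called (adjusted p = 0.517). Fbl had signals of 3873 and 4104 in Vector cells, 2713 and 2598 in cultured MUC1-CD cells and 3018 and 3295 in the tumors. Fbl encodes fibrillarin, the methyltransferase, and fell by 0.58 (SE 0.10, adjusted p = 0.00412), with tumors between the other groups. Nop58, the partner of Nop56 in the same particle, had signals of 5589.6 and 7664 in Vector cells, 6369 and 6367 in cultured MUC1-CD cells and 5792 and 6609.8 in the tumors. Its 2 Vector arrays lay on either side of the 2 culture arrays, and its change was -0.04 (SE 0.16, adjusted p = 0.855). Rrp9 had signals of 186 and 157 in Vector cells, 156 and 151 in cultured MUC1-CD cells and 332 and 371 in the tumors. This protein of the U3 snoRNP, which directs early cuts of the precursor, had its highest signals in tumors.

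Box H/ACA snoRNPs convert uridines of ribosomal RNA to pseudouridine, and their 3 members went different ways. Dkc1 had signals of 226 and 134 in Vector cells, 547 and 591 in cultured MUC1-CD cells and 1002 and 837 in the tumors. Dkc1 was thus lowest on both Vector arrays, rose by 1.62 (SE 0.25, adjusted p = 0.00235) in culture, and had a still higher mean in tumors. Gar1 had signals of 1881 and 2029.5 in Vector cells, 1112 and 1231 in cultured MUC1-CD cells and 1674 and 1735 in the tumors. This small partner of dyskerin fell by 0.73 (SE 0.12, adjusted p = 0.00312) in culture. Nhp2, another subunit, had signals of 2793 and 2644 in Vector cells, 2318 and 2385 in cultured MUC1-CD cells and 2086 and 2146 in the tumors, and its change in culture was -0.21 (SE 0.10, adjusted p = 0.14). Dkc1 is represented by 1 probe set, so no second set of probes bears on its direction.

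Of the nucleolar scaffold proteins and cofactors of ribosomal RNA transcription, 3 of 5 fell in culture, beside 24.9% of all genes tested. Mybbp1a had signals of 3176 and 3456 in Vector cells, 1135 and 1210.0 in cultured MUC1-CD cells and 995 and 962 in the tumors. Mybbp1a, a nucleolar protein first found by its binding to Myb, fell by 1.49 (SE 0.12, adjusted p = 0.000185), and both MUC1-CD groups lay far below Vector. Ddx21 had signals of 3015 and 4436 in Vector cells, 2388 and 2409.9 in cultured MUC1-CD cells and 1776 and 2162 in the tumors. This RNA helicase fell by 0.61 (SE 0.20, adjusted p = 0.042), with Vector arrays far apart from each other, and its second probe set, at -0.44, was not called (adjusted p = 0.254). Ncl had signals of 6891 and 4597 in Vector cells, 7471 and 8243 in cultured MUC1-CD cells and 8521 and 9077 in the tumors. Nucleolin, an abundant RNA-binding protein of the nucleolus, was lowest on Vector replicate 2, and its change of 0.48 (SE 0.18, adjusted p = 0.0707) was not called. Nolc1 had signals of 1463 and 1050.4 in Vector cells, 808 and 823 in cultured MUC1-CD cells and 736 and 875 in the tumors. Nolc1, a chaperone of snoRNPs, fell by 0.60 (SE 0.19, adjusted p = 0.0394) by this probe set, but 2 others that passed the filter did not follow it. The second changed by 0.18 (adjusted p = 0.484), and the last, with signals of 58.1 and 3.40 in Vector and 239 and 275 in culture, rose by 2.84 (SE 0.56, adjusted p = 0.00697). The direction of Nolc1 therefore depends on the probe set. Tcof1, which encodes treacle, a factor of ribosomal DNA transcription, was not called: 0.53 (SE 0.20, adjusted p = 0.0733).

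The small subunit processome is the large particle that forms on the precursor and releases the early small subunit, and 2 of its 8 members fell in culture, the same 25% as among all genes tested (24.9%). Wdr43 had signals of 1504 and 1860.3 in Vector cells, 835 and 805 in cultured MUC1-CD cells and 849.5 and 801 in the tumors. This subunit of the complex that loads first onto the precursor fell by 1.01 (SE 0.15, adjusted p = 0.0019), and both of its probe sets fell. Rcl1 had signals of 1577 and 876 in Vector cells, 536 and 496 in cultured MUC1-CD cells and 670.5 and 628 in the tumors. Rcl1, required for early cuts of the precursor, fell by 1.17 (SE 0.26, adjusted p = 0.0117), although its Vector arrays were the farthest apart of any member. The RNA helicase Ddx10 had signals of 795 and 700.4 in Vector cells, 716 and 734 in cultured MUC1-CD cells and 527 and 589 in the tumors, so that both tumor arrays lay below the other 4. Heatr1, needed for ribosomal RNA transcription and early processing, had signals of 387 and 288 in Vector cells, 264 and 299.7 in cultured MUC1-CD cells and 406 and 392 in the tumors. Its Vector and culture arrays overlapped. The changes of Utp20, Heatr1, Imp4, Nop14, Noc4l and Ddx10 in culture were between -0.58 (Nop14) and -0.04 (Ddx10), all below 0 and none called. The second probe set of Imp4, a protein of the U3 snoRNP, fell by 0.62 (adjusted p = 0.0240).

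Of 4 factors of later small subunit maturation, 3 fell in culture, beside 24.9% of all genes tested. Tsr1 had signals of 3707 and 4119 in Vector cells, 2091 and 1906 in cultured MUC1-CD cells and 1573 and 1602 in the tumors. Tsr1, a GTPase-like factor bound to the late small subunit precursor, fell by 0.96 (SE 0.11, adjusted p = 0.000854) and had its lowest signals in tumors. Rrp12 had signals of 656 and 655 in Vector cells, 309.6 and 348 in cultured MUC1-CD cells and 434 and 468 in the tumors. Rrp12, which takes part in maturation and export of the subunit, fell by 0.96 (SE 0.15, adjusted p = 0.00238), and its tumor arrays lay between the other groups. Bysl had signals of 489 and 487 in Vector cells, 353 and 343 in cultured MUC1-CD cells and 414 and 422 in the tumors. Bysl, an essential factor of small subunit maturation, fell by 0.47 (SE 0.14, adjusted p = 0.033) with little spread within each group. Ltv1, which leaves the late precursor before the subunit is finished, had signals of 965 and 1321 in Vector cells, 1042 and 1062 in cultured MUC1-CD cells and 1322 and 1228 in the tumors and was not called.

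Pes1, Bop1 and Wdr12 form the PeBoW complex, which processes the precursor of the large subunit's RNA. All 3 fell in culture, where 24.9% of all genes tested did. Bop1 had signals of 1113 and 819 in Vector cells, 225 and 189.5 in cultured MUC1-CD cells and 329.5 and 263 in the tumors. Bop1 fell by 2.13 (SE 0.21, adjusted p = 0.000447), the largest fall among the 42, and both Vector arrays lay far above all others. Pes1 had signals of 1389 and 931 in Vector cells, 662 and 699.6 in cultured MUC1-CD cells and 902 and 826 in the tumors. Pes1 fell by 0.73 (SE 0.20, adjusted p = 0.0247), with Vector replicate 2 close to tumor replicate 1. Wdr12 had signals of 762 and 702 in Vector cells, 500.2 and 506 in cultured MUC1-CD cells and 664 and 590.1 in the tumors. Wdr12 fell by 0.53 (SE 0.14, adjusted p = 0.0223), and its tumor arrays again lay between the other groups.

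Among 12 assembly factors of the large subunit, 9 fell in culture and 0 rose, where 24.9% of all genes tested were called lower and 21.2% higher. Gnl3 had signals of 8116 and 7969 in Vector cells, 2061 and 2174 in cultured MUC1-CD cells and 2736 and 2634 in the tumors. Gnl3 encodes nucleostemin, a nucleolar GTPase known from stem and tumor cells. It fell by 1.92 (SE 0.09, adjusted p = 3.96e-05), the smallest p among the 42. Nop2 had signals of 1859.9 and 1912 in Vector cells, 881 and 843 in cultured MUC1-CD cells and 1414 and 1125 in the tumors. Nop2, a methyltransferase of the large ribosomal RNA, fell by 1.12 (SE 0.14, adjusted p = 0.00126). Nop16 had signals of 2272 and 2462 in Vector cells, 1105 and 1307 in cultured MUC1-CD cells and 1732 and 1686 in the tumors. Nop16, a nucleolar protein of the early large subunit, fell by 0.97 (SE 0.13, adjusted p = 0.00138), and for both genes the tumors lay between culture and Vector. Ebna1bp2 had signals of 3718 and 4292 in Vector cells, 2106 and 2293 in cultured MUC1-CD cells and 2658 and 2529 in the tumors. Ebna1bp2, a scaffold factor of the same particle, fell by 0.86 (SE 0.12, adjusted p = 0.00149). Rrs1, Wdr74, Ddx18, Surf6 and Nip7 fell by 0.86, 0.77, 0.77, 0.65 and 0.53 (adjusted p = 0.00303 to 0.00939). The second probe set of Ddx18 changed by 0.38 and was not called (adjusted p = 0.0833). Noc2l, Rrp1b and the GTPase gene Gnl2 were not called in culture.

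**Figure D2:**
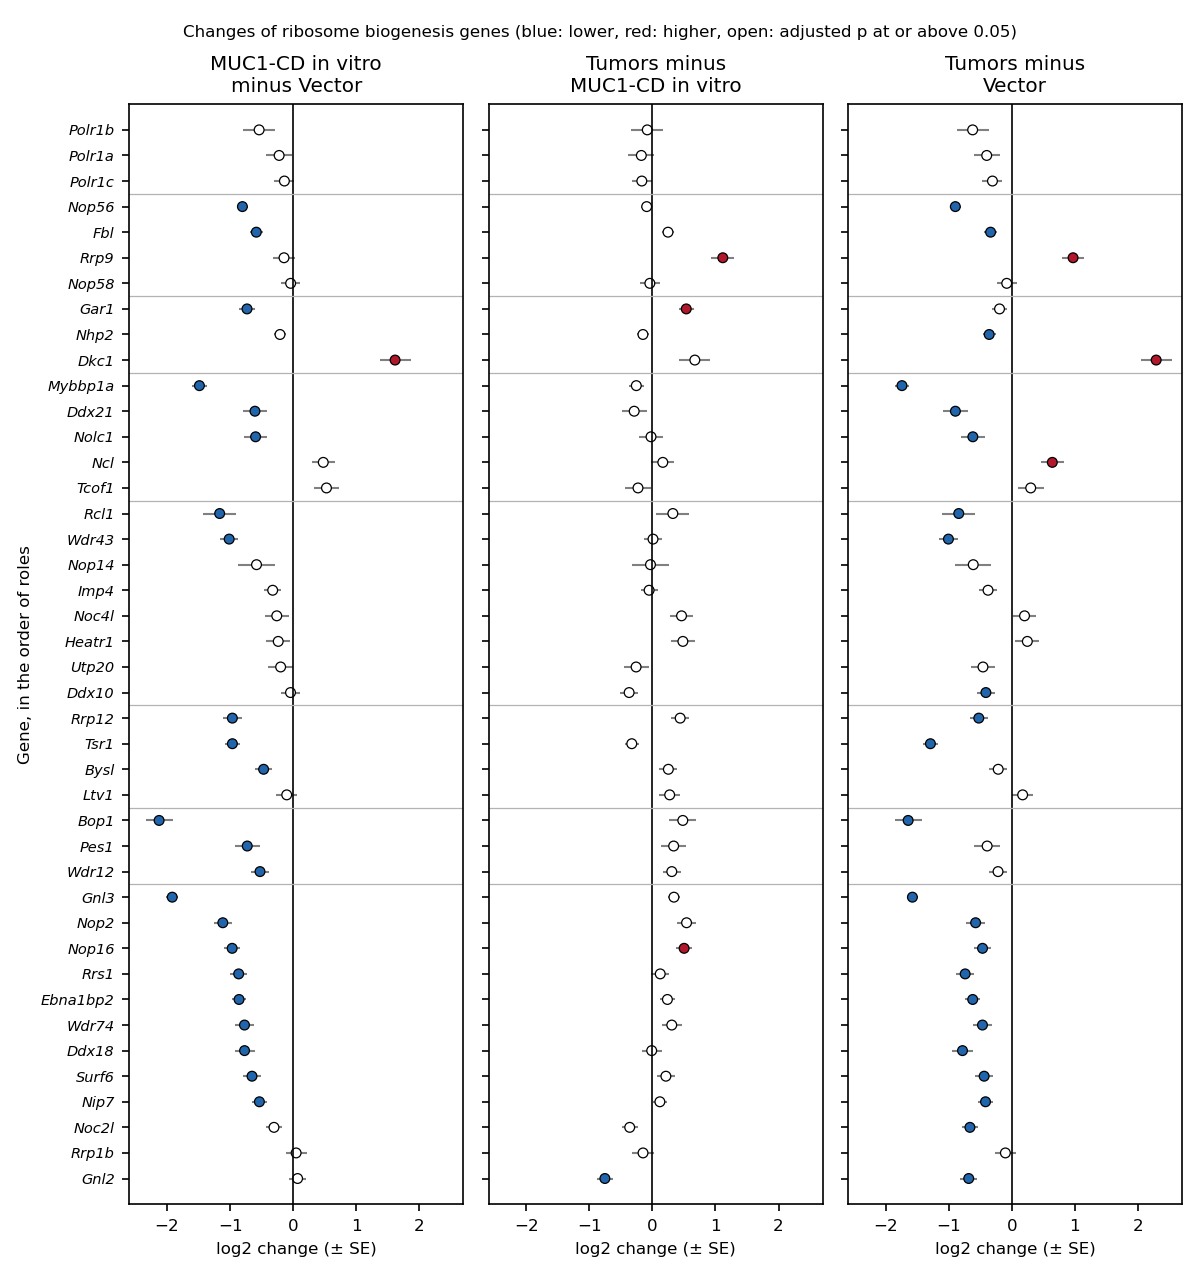
Change of each gene in 3 comparisons as log2 difference with its SE, by role from RNA polymerase I at the top to large subunit assembly at the bottom. Blue points fell, red points rose and open points were not called. In the left panel 23 points are blue and Dkc1 is the red one, and in the middle panel 4 points are filled.

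Tumors were compared with MUC1-CD culture to find what goes with growth in the animal. By the shared estimate of the spread, 3 of the 42 genes rose (Rrp9, Gar1 and Nop16) and 1 fell (Gnl2), where 9.82% of all genes tested were called higher and 8.97% lower. The median change of the 42 was 0.12 against 0.03 over all genes tested, and with each array divided by its median signal it was -0.15 against -0.23. Under that scaling 1 member (Rrp9) rose and 6 fell, where 6.14% of all genes were called higher and 20.9% lower. Rrp9 rose by 1.12 (SE 0.18, adjusted p = 0.00937), Gar1 by 0.54 (SE 0.12, adjusted p = 0.0279) and Nop16 by 0.50 (SE 0.13, adjusted p = 0.0439). Gnl2, singled out after its values were seen, had signals of 1230.5 and 1124 in Vector cells, 1191 and 1282 in cultured MUC1-CD cells and 765 and 689 in the tumors, and fell by 0.75 (SE 0.13, adjusted p = 0.0128).

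In a fit of the 4 MUC1-CD arrays alone, chosen after seeing the data because the Vector arrays are the most spread, 17 of the 42 rose and 6 fell in tumors, where 25.1% of all genes were called higher and 22.6% lower. The largest rises there were those of Rrp9 (1.12), Dkc1 (0.67), Nop2 (0.54), Gar1 (0.54) and Nop16 (0.50), and the PeBoW genes Bop1, Pes1 and Wdr12 rose by 0.48, 0.34 and 0.31. Gnl2, Ddx10, Noc2l, Tsr1, Ddx21 and Mybbp1a fell, with changes from -0.75 to -0.26. This fit was run with the deposited scaling only. When any 1 of the 4 MUC1-CD arrays was left out of the fit of all groups, the median change of the 42 in tumors against culture was 0.08 to 0.18. The calls of Rrp9, Gar1, Nop16 and Gnl2 did not hold in any of these fits. Without culture replicate 1 or 2 or tumor replicate 1 or 2, 1.52%, 1.56%, 1.72% and 1.9% of all genes were called lower, and 3%, 2.88%, 2.45% and 2.6% higher. Host cells are part of a tumor's RNA, and here they are mouse cells read on an array for rat. How far mouse RNA binds each probe set was not measured, so sums of marker signals are not levels of host RNA. Summed signals of 15 macrophage markers were 3374 and 3592 in MUC1-CD culture and 7929 and 7850 in tumors, and 8 of 11 tested rose. Those of 11 endothelial markers were 368 and 288 against 3007 and 2870, with 4 of 4 tested higher, and those of 12 skeletal muscle markers 333 and 444 against 10328 and 9496, with 8 of 9 higher. For 3 erythroid markers the sums were 83.4 and 116 against 3431 and 3532, with 1 of 2 higher. No marker was listed at 0 on any array, and Aif1 of the macrophage list was the only one below 5 on both culture arrays. Below the filter signal in culture were 11 of 15 macrophage, 10 of 11 endothelial, 10 of 12 muscle and 2 of 3 erythroid markers. In tumors the counts were 1, 3, 0 and 0. The filter takes the mean over all 6 arrays, so high tumor signals alone could bring a marker into the test. The counts of tested markers that rose are therefore partly set by the filter, and nothing is concluded from them. The part of host RNA in the changes of the nucleolar genes was not tested, and a smaller share of a cell type and less RNA per cell cannot be told apart in such samples.

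**Figure D3:**
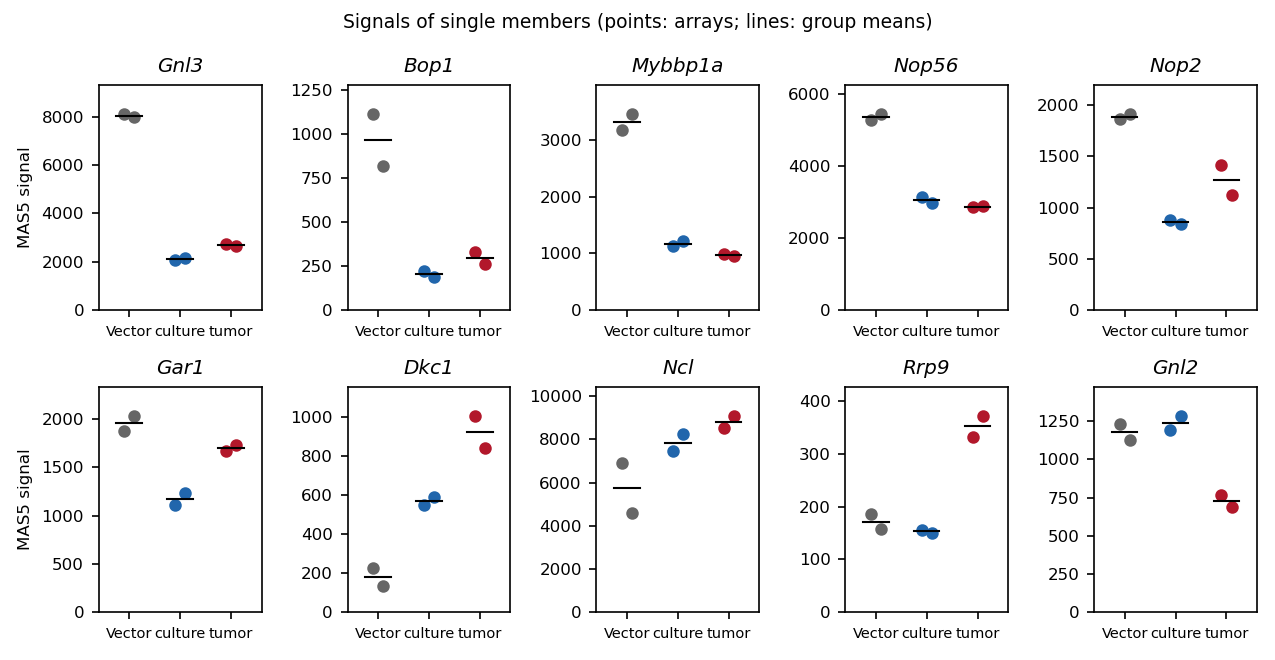
Signals of 10 members on single arrays, with a line at each group mean and each axis starting at 0. Gnl3, Bop1, Mybbp1a, Nop56, Nop2 and Gar1 are highest in Vector cells, Dkc1 and Ncl lowest there, Rrp9 stands out high in tumors and Gnl2 low.

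Against Vector, most of the nucleolar genes were lower in tumors too. This comparison shares its Vector arrays with the first and its tumor arrays with the second. Of the 42 genes, 23 were lower and 3 higher (Dkc1, Rrp9 and Ncl), where 26.6% of all genes were called lower and 24.8% higher, and the median was -0.45 against -0.02. Of the 23 members that fell in culture, 19 were also lower in tumors than in Vector, and the other 4 (Gar1, Bysl, Pes1 and Wdr12) were not called. In 17 of the 23 the tumor mean lay between those of culture and Vector, and in 6 it lay below the culture mean. These 23 were chosen by their low culture signals on the same arrays, which by itself favors a tumor mean above that of culture. The same count over all genes that fell was not made, so no return toward Vector can be read from it. Mybbp1a (-1.74), Bop1 (-1.64), Gnl3 (-1.58), Tsr1 (-1.29) and Wdr43 (-1.01) were lower by more than 2-fold, like 11.7% of all genes (adjusted p = 5.39e-05 to 0.00161). Dkc1 was higher by 2.29 (SE 0.25, adjusted p = 0.000456). With each array divided by its median signal, 35 members were lower and only Dkc1 was higher, where 53.9% of all genes were called lower and 12.2% higher. Of the large subunit factors, 11 of 12 were lower in tumors than in Vector, all but Rrp1b, whose other 2 probe sets were higher (1.12 and 0.65, adjusted p = 0.00482 and 0.0454). By contrast, 12 or 9 members were lower when tumor replicate 1 or 2 was left out, and 14 when either culture array was, where 16.8%, 16.7%, 21.1% and 21.1% of all genes were.

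A wider list of 145 other ribosome biogenesis genes was drawn up by function, of which 136 were tested. In MUC1-CD culture 57 of them fell and 5 rose, with a median of -0.37, beside the 24.9% and 21.2% of all genes given above. Dcaf13, of the small subunit processome, had signals of 5105 and 6045 in Vector cells, 2002 and 1950.5 in cultured MUC1-CD cells and 2233 and 2148 in the tumors and fell by 1.48 (adjusted p = 0.000189). Krr1, of the same particle, fell by 1.35, and Zfp622 and Nsa2, of the large subunit, fell by 1.67 and 0.94 (adjusted p = 0.000201 to 0.000353). Dcaf13 and Krr1 lie on chromosome 7, where all 656 genes tested had a median of -0.65 in culture. Zfp622 and Nsa2 lie on chromosome 2, with a median of -0.19. The part of the chromosome in these falls was not tested. Among the rises were the nuclease gene Xrn2 (0.76), Znhit6 of snoRNP assembly (0.74), Rbm28 (0.60) and the polymerase subunit gene Polr1d (0.47), with adjusted p = 0.00469 to 0.0311. By function, 16 of 39 small subunit processome genes, 21 of 50 large subunit genes, 8 of 20 trimming nucleases, 5 of 8 snoRNP genes, 4 of 8 later small subunit factors and 3 of 11 genes of RNA polymerase I and its factors fell.

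In tumors against culture, 9 of the 136 rose and 5 fell, with a median of 0.10. These shares, 6.62% and 3.68%, were below the 9.82% and 8.97% of all genes. With each array divided by its median signal, 2 rose and 19 fell around a median of -0.16, where 6.14% of all genes were called higher and 20.9% lower. Imp3, of the U3 snoRNP, had signals of 1257 and 1125 in Vector cells, 606 and 601 in cultured MUC1-CD cells and 1091 and 1238 in the tumors and rose by 0.93 (SE 0.14, adjusted p = 0.00667). Ddx54, Bud23 and Ngdn rose by 0.87, 0.81 and 0.58, and Pop1, Riok2, Pdcd11 and Ruvbl2 fell by 1.06, 0.75, 0.71 and 0.56 (adjusted p = 0.0196 to 0.0321). Of 41 tested genes for ribosomal proteins, the products that the nucleolar factors assemble, 35 fell and 0 rose in culture against Vector (37 and 0 at limma's unadjusted p), with changes from -0.73 to -0.19 and a median of -0.35. In that comparison 24.9% of all genes tested were called lower and 21.2% higher. In tumors against culture 17 of these 41 rose and 0 fell (29 and 0 unadjusted), with a median of 0.25. Both counts depended on the scaling. After quantile normalization 7 fell and 1 rose in culture (median -0.05), where 25.6% of all genes were called lower and 20.3% higher. In tumors against culture 0 of the 41 were then called (0 unadjusted). With each array divided by its median signal, all 41 fell in culture, where 39.3% of all genes were called lower. Under that scaling 0 were called in tumors against culture (1 lower unadjusted). Many ribosomal protein genes have near-identical copies, so their probe sets are uncertain.

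**Figure D4:**
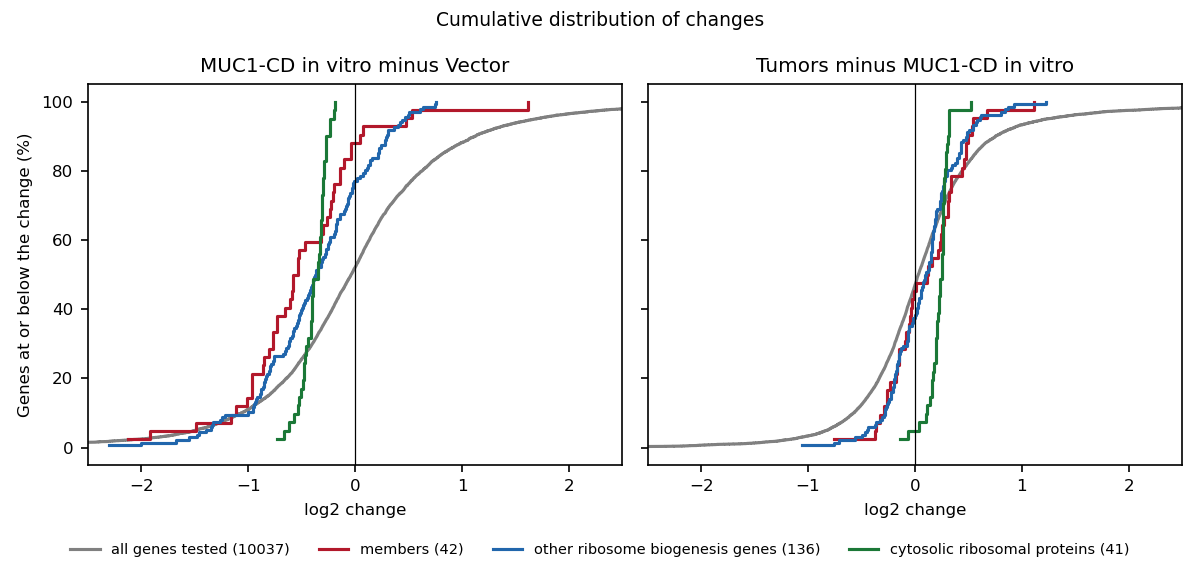
Cumulative share of genes at or below a log2 change, for the 42 members, 136 other ribosome biogenesis genes, 41 ribosomal protein genes and all 10037 genes tested. On the left, the members (median -0.56) and the other pathway genes (-0.37) lie to the left of all genes (-0.04), and on the right their medians (0.12 and 0.10) lie near that of all genes (0.03), or -0.15, -0.16 and -0.23 with each array divided by its median signal, which is not drawn.

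Myc itself had signals of 3824 and 3012 in Vector cells, 228 and 227 in cultured MUC1-CD cells and 397 and 417 in the tumors. It fell by 3.81 in culture (SE 0.16, adjusted p = 2.61e-05) and rose by 0.80 (SE 0.16, adjusted p = 0.0196) in tumors, where its signal stayed well below that in Vector cells.

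The 42 genes lie on 19 chromosomes of the GRCr8 assembly, and 15 of these hold a gene that fell in culture. Bop1 and Utp20 lie on chromosome 7, where all 656 genes tested had a median of -0.65 in culture, and Gnl3 on chromosome 16, whose 292 genes tested had a median of -0.35. Without these 3 members, 21 of 39 fell and 1 rose, with a median of -0.54. On chromosome 1, which holds 6 members, 5 fell while its 1256 genes tested had a median of 0.08. Medians of other chromosomes lay on both sides of 0, such as -0.26 on chromosome 6 (Wdr43) and 0.16 on chromosome 13 (Ddx18). The part of the chromosome in the falls of the members was not tested.

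The members have 57 probe sets, 55 of which passed the filter, and 9 genes had more than 1 that did. Nolc1 was the 1 gene with probe sets called in opposite directions, in culture and in tumors against Vector. All filtered probe sets of Wdr43 fell in culture, and of the 3 of Rrp12 the first and the second fell (0.96 and 0.90) while the last, at -0.56, was not called. For Tcof1 the 3 probe sets changed by 0.53, 0.71 and 1.36 in culture, none of them called, and the second was higher in tumors than in Vector (1.30, adjusted p = 0.00525).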

How the data were processed

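RNA of 6 samples was measured on Affymetrix Rat Genome 230 2.0 arrays, 2 for each of 3 groups, and each array was grouped by its own title. The deposited values are MAS5 signals, per the submitters' processing notes, in linear units of microarray intensity. Each deposited column has the same 2% trimmed mean. On the MAS5 version, detection calls and filters, nothing is stated in the labels.

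Of 31042 probe sets other than controls, 20826 name 1 gene in the platform annotation, 436 several and the rest none, and 20758 were matched to GRCr8 symbols by Entrez ID. Probe sets with a mean signal of at least the 40th percentile (61.6) were tested. All 6 arrays entered 1 limma 3.58.1 model in R 4.3.3, with group as the only term, on log2(signal + 16), with a trended prior, and Benjamini-Hochberg adjustment over 18625 probe sets. The script was tested on simulated data. There are 3 residual degrees of freedom, and the small number of arrays limits the precision.

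The members and lists were chosen with earlier results of these data known. Signals array by array are given for all RNA polymerase I, snoRNP and PeBoW members and Ncl, and for the 4 members with the smallest p in either step of each other role. Of other pathway genes, the 4 with the smallest p in each direction are named. Alternatives were other pseudocounts, filters, scalings, probe set choices and weights, the replicate number as a block, and each array left out. Same-numbered replicates did not deviate together (correlations -0.02, -0.03 and -0.04), so the numbers were not taken as pairs.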

Additional observations from a re-analysis of the deposited data

How the results depend on the processing

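The direction of the members' median against Vector held under every alternative run. In culture it was -0.88 with each array divided by its median signal. There 2 members were higher after quantile normalization, with array weights and with the mean over probe sets. Of all genes, 20.3%, 18.6% and 24.6% were then called higher. Leaving out 1 array gave 12 to 30 lower and 1 to 3 higher. In tumors against culture, 5 were higher with the filter at the 60th percentile, after quantile normalization and with the mean over probe sets, and 1 without a trend. Of all genes, 8.64%, 9.6%, 10.9% and 8.35% were then called higher. Median scaling gave 6 lower, 1 higher and a median of -0.15, and array weights 6 lower and 16 higher. The 4 MUC1-CD arrays alone, chosen after seeing the data, gave 6 and 17. Of all genes, 20.9%, 21.6% and 22.6% were then called lower and 6.14%, 24.4% and 25.1% higher. Leaving out 1 array gave 0 to 6 lower and 0 to 17 higher. In tumors against Vector, median scaling gave 35 lower, 1 higher and a median of -1.03, where 53.9% of all genes were called lower and 12.2% higher. Array weights gave 15 lower, where 21.5% of all genes were. The second probe set gave 5 higher and the mean over probe sets 6, where 29% and 29.6% of all genes were. Leaving out 1 array gave 9 to 29 lower and 2 to 5 higher.

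Where a member was called in either fit, its sign changed only under another choice of probe set. Ddx18 was 0.38 in culture and 0.047 in tumors against Vector by its second probe set. Nolc1 was 0.18 and 0.12 by its second probe set and 0.81 and 0.87 by the mean, and Rrp1b was 1.12 and 0.55 in tumors against Vector. Of 126 member values, 14 not called in either fit changed sign with each array divided by its median signal and 4 after quantile normalization. For the other moves the cause was not tested. Of 2184 values of single members under alternatives, 1846 kept direction and side of the threshold. Of the 23 members that fell in culture, 11 were called lower under all 17 alternatives: Gar1, Mybbp1a, Wdr43, Tsr1, Rrp12, Bop1, Nop2, Nop16, Gnl3, Ebna1bp2 and Rrs1. With the replicate number as a block, 21 members were lower and 1 higher in culture, where 23.7% and 20.4% of all genes were. In tumors against culture 1 was lower and 2 higher, where 7.31% and 8.29% of all genes were. In tumors against Vector 21 were lower and 3 higher, where 25.2% and 24.1% of all genes were.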

Other observations

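Of 12 genes of the Myc and Max network, 11 were tested. In MUC1-CD culture against Vector, 4 fell and 1 rose by limma, where 24.9% of all genes tested were called lower and 21.2% higher. In tumors against culture 4 rose and 1 fell, where 9.82% were called higher and 8.97% lower. Max, the partner through which Myc binds DNA, had signals of 5675 and 6160.3 in Vector cells, 2788 and 2619.9 in MUC1-CD culture and 3262 and 3590.1 in tumors and fell by 1.12 in culture (adjusted p = 0.000336). Max has 2 probe sets, and only that with the higher mean is given. Changes of the 11 genes in culture against Vector ran from -3.81 to 1.47, with 7 below 0 and 4 above.

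The E-box lies in the promoter windows of 838 tested genes. Their median change in MUC1-CD culture was -0.15, against -0.02 for tested genes whose windows lack it, and 17.5% of the former and 21.4% of the latter were called higher.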
